A study of Mus musculus with 18 samples.

Results

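The subunits of the mitochondrial respiratory chain and of ATP synthase were described in mouse bone marrow mesenchymal stromal cells (BMSCs) under FGF9 stimulation. Members were taken by gene symbol: the Nduf, Sdh, Uqcr, Cox4 to Cox8 and Atp5 families of the nuclear genome and the mt-Nd, mt-Co, mt-Cytb and mt-Atp genes of the mitochondrial genome. The pattern matched 116 symbols, of which 14 pseudogenes and Cox7a1 were set aside by the rule. Of the 101 left, 95 had at least 10 counts in at least 3 of the 18 samples and are the members, out of 17782 genes that reached the same minimum and 56691 genes in the table. They are 82 nuclear genes (37 of complex I, 4 of complex II, 8 of complex III, 16 of complex IV and 17 of ATP synthase, complex V) and 13 mitochondrially encoded genes (7, 1, 3 and 2 of complexes I, III, IV and V). Ndufa4 and Ndufa4l2 were placed in complex IV, where NDUFA4 protein is known to reside. The 6 below the minimum were Cox8c with 1 read over all samples, Cox7b2, Ndufb11b and the second Atp5o row with 0, Ndufa11b with 13 and Ndufb4c with 84. The pattern misses Cox4i1 and Cox4i2, whose symbols carry a letter it does not allow, and their values are given in the closing section.

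The cells were primary wild-type (wt) BMSCs grown from collagenase-digested compact bone, and the sources used here give neither the donors' age for these libraries nor whether each sample came from its own mouse. The 6 groups were culture medium (CM), osteogenic induction medium (OI) and adipogenic induction medium (AI), each without and with 20 ng/ml recombinant FGF9 (CM_F9, OI_F9 and AI_F9), with 3 samples a group harvested on day 4. By the study's methods the culture medium was a commercial product, while OI and AI were made from alpha-MEM and serum. OI held ascorbate-2-phosphate, beta-glycerol phosphate and dexamethasone. AI held dexamethasone at a higher concentration than OI, together with insulin, rosiglitazone and IBMX, a phosphodiesterase inhibitor. OI or AI against CM therefore compares whole media, and the part of the base medium and serum was not tested. The question for these genes was whether FGF9 or the induction media moved the respiratory chain, and whether the 2 genomes that encode it moved together.

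Complexes I and II pass electrons from NADH and succinate to ubiquinone, complex III passes them on to cytochrome c, and complex IV passes them to oxygen. Complexes I, III and IV pump protons, and ATP synthase lets the protons back in to make ATP. Most subunits are encoded in the nucleus and imported, while a few membrane-embedded core subunits of complexes I, III, IV and V are made from mitochondrial DNA, which is transcribed from its own promoters by its own polymerase. The number of mitochondria and their oxidative capacity are known to rise as precursor cells become adipocytes. Nuclear respiratory factor 1, GABP (nuclear respiratory factor 2), the estrogen-related receptors (ERR), YY1 and CRE-binding factors are known regulators of nuclear subunit genes, and the PGC-1 coactivators work through several of them.

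Promoters were shown for 5 nuclear subunit genes on which the results below turn. They are Uqcrfs1, Cox6a1 and the 3 genes that encode the same c subunit of ATP synthase and moved by different amounts. Uqcrfs1, the Rieske iron-sulfur subunit of complex III, was the nuclear member with the largest rise in AI among those with many reads. Cox6a1, a complex IV subunit, was lower with FGF9 in OI and higher in AI. It was also called lower in CM, where the call depended on the fit and on single libraries. Each window holds 250 bases before and 50 bases after the transcription start in RefSeq (GRCm38.p6), 5′ to 3′ on the gene's strand, with motif matches on either strand in capitals. Atp5g1 (chr11:96075582-96075881, minus strand) held none of the motifs searched. Atp5g2 (chr15:102670998-102671297, minus strand) held a nuclear respiratory factor 1 motif and Atp5g3 (chr2:73911277-73911576, minus strand) held that motif and an ERR motif, TGACCTTGA on this strand. Uqcrfs1 (chr13:30545267-30545566, minus strand) held a CRE, and Cox6a1 (chr5:115348909-115349208, minus strand) held 2 nuclear respiratory factor 1 motifs and a GABP motif, CTTCCGG on this strand.
Atp5g1: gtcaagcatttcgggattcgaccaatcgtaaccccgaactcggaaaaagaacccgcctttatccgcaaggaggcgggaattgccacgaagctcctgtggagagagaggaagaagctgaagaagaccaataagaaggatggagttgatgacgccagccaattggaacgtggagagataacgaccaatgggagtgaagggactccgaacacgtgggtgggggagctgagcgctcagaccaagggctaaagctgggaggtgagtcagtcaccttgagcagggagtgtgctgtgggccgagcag
Atp5g2: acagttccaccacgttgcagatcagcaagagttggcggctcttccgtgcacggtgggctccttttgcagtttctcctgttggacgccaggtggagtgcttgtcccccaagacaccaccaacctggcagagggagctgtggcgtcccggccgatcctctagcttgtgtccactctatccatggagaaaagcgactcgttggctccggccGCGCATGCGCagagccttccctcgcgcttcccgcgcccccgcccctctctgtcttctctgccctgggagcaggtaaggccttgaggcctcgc
Atp5g3: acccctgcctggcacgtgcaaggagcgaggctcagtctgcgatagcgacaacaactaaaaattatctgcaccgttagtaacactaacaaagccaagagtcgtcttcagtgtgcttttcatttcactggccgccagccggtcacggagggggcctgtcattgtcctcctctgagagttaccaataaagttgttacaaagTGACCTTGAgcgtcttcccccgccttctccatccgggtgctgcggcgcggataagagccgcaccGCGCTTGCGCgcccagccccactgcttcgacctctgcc
Uqcrfs1: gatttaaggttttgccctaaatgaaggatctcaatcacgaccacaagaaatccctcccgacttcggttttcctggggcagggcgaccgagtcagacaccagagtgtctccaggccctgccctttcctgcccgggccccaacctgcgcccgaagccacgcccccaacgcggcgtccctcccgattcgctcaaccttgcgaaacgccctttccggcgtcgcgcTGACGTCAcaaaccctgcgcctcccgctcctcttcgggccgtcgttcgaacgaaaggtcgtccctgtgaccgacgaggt
Cox6a1: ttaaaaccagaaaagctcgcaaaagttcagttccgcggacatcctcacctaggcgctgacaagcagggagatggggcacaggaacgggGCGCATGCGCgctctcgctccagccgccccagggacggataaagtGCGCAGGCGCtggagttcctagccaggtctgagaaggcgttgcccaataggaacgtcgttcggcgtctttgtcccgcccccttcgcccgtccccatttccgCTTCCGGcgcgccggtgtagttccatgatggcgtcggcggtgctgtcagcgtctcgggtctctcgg

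Of the 82 nuclear members, 67 had a RefSeq window, 72 windows in all since 5 genes had more than 1 start, and the other 15 were not searched. The motif of nuclear respiratory factor 1 (GCGC, any 2 bases, GCGC) was in 26.4% of the 72 windows and in 6.23% of the 32851 windows of all genes. CCGGAAG for GABP was in 23.6% and 8.86%, AAGATGGC for YY1 in 13.9% and 2.75%, TGACGTCA for the CRE in 5.56% and 1.79%, and TNAAGGTCA for ERR in 4.17% and 1.28%. At least 1 of the 5 was in 59.7% of member windows and 18.5% of all windows, and no matches of different motifs overlapped in the member windows. The median log2 fold change of the members with FGF9 in AI was 0.78 with and 0.75 without the nuclear respiratory factor 1 motif, and 0.74 with and 0.76 without the GABP motif. The 3 genes with the ERR motif (Atp5g3, Ndufb4 and Sdhd) had a median of 0.89 against 0.76, those with YY1 0.72 against 0.79 and those with the CRE 0.84 against 0.76. For AI against CM the medians with and without a motif were 0.62 and 0.71 for nuclear respiratory factor 1, 0.69 and 0.66 for GABP, 0.57 and 0.71 for YY1, 0.64 and 0.67 for the CRE and 0.89 and 0.66 for ERR, so no common direction was seen. A match describes letters in the window and is not a measured binding site.

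The mitochondrial genes raise a separate matter of sequence. A stretch of mouse chromosome 1 (GRCm39 chr1:24650616-24655278) carries annotated copies of 7 of them. Gm28661, Gm10925, Gm28437 and Gm10222 were identical to mt-Co2 over 681 bases, mt-Atp6 over 678, mt-Co3 over 783 and mt-Nd4l over 294. Gm28439 was identical to mt-Nd4 over 876 bases (63.6% of that gene), and Gm29216 matched 31.3% of mt-Co1 at 99.8% identity. Gm28438 differed from mt-Nd3 by 1 base in 345, shown in capitals in the first 32 bases of both transcripts (GENCODE vM21), since this base is the only one that could tell their reads apart:
mt-Nd3: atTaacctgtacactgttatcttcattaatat
Gm28438: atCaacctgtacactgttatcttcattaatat

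Reads from identical stretches cannot be assigned, and the sources used here do not say how the authors' counting treated them. mt-Nd3, mt-Nd4l, mt-Atp8, mt-Atp6, mt-Co3 and mt-Co2, which lie next to each other in that stretch, had mean FPKM (reads scaled by gene length and by the library's total) of 1.97 to 69.6 in CM, while the 7 other mitochondrial genes had 1038 to 4960. Their 6 levels made up 0.805% to 0.918% of the summed mitochondrial FPKM in the 6 groups, so their levels were not compared with those of other genes. Their changes between groups are given with that limit, and the part of shared reads in them was not tested beyond the sum below. mt-Nd6 lies on the opposite strand to mt-Nd5 and it is not stated whether counting used strand, so its reads and those of transcripts from the other strand cannot be told apart.

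The 18 libraries held 16719561 to 20526502 counted reads. In each of the 6 groups the library numbered 3 stood apart: it was the highest of the 3 for 55, 66, 78, 77, 78 and 77 of the 82 nuclear members in CM, CM_F9, OI, OI_F9, AI and AI_F9. Its median deviation from the group mean over these members was 0.05 to 0.17 on the log2 scale, and over all genes shorter than 1200 bases it was 0.03 to 0.17, while over genes longer than 4000 bases it was -0.04 to -0.01. The nuclear members are short, with a median length of 1532 bases against 4926 for genes of at least 10 CPM. What the number marks is not stated, and results are given with and without these 6 libraries where they differ. Scaling by library size alone in place of the trimmed mean of M values (TMM) shifted the median log2 fold change of all genes by -0.20 for FGF9 in AI and by 0.11 for AI against CM, so members were also set against the median of all genes.

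Cell markers moved with the groups. The BMSC surface proteins of the study's flow cytometry (Itgb1, Cd44, Ly6a, Pdgfra) were detected in all groups, with a summed level of 517.5 to 535 FPKM in CM, 322 to 349 in AI and 254 to 268 in AI_F9, and those absent from such cells by flow cytometry (Pecam1, Cd34, Ptprc) summed to 2.71 to 19.8 over all samples. The 4 did not move alike: 1 rose and 3 fell in AI against CM, and 1 rose and 2 fell with FGF9 in AI. Of the 3 negative markers 1 rose and 2 fell in each of these comparisons. The mature adipocyte list summed to 137 to 163 FPKM in CM, 3672 to 3805 in AI and 10640 to 11140 in AI_F9; all 15 tested genes rose in AI against CM and 14 of 15 rose with FGF9 in AI, and Lep was at 0 in CM, CM_F9 and AI. The macrophage list summed to 417 to 711 FPKM in CM, 1382 to 1601 in AI and 393 to 430 in AI_F9. With FGF9 11 of its 12 genes were lower in AI, 9 in CM and 7 in OI. Of all genes 23.7%, 18.9% and 20.1% were lower with FGF9 in AI, CM and OI. In AI against CM 4 of the 12 rose and 7 fell, with a median log2 fold change of -0.38, so most of the list did not share the higher sum in AI. The endothelial list summed to 14.6 to 16.9 in AI and 6.36 to 7.29 in AI_F9, and 7 of 9 tested genes fell. In bulk samples fewer cells of a type and less RNA per cell cannot be told apart, and the part of these shifts in the results below was not tested.

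The share of all counted reads that came from respiratory chain genes was highest in AI_F9 and next highest in AI. The 13 mitochondrial genes took 1.89%, 1.96% and 1.9% of the reads in the 3 CM samples, 2.33%, 2.40% and 2.45% in CM_F9. They took 2.09%, 2.08% and 2.21% in OI and 2.78%, 2.81% and 3.07% in OI_F9. In AI they took 4.27%, 4.0% and 4.36%, and in AI_F9 6.77%, 6.58% and 6.91%. Every FGF9 sample was above every sample of its own medium without FGF9, and all AI samples were above all CM and OI samples. The 82 nuclear genes took 0.452% ± 0.0206 in CM, 0.493% ± 0.0211 in CM_F9, 0.485% ± 0.0342 in OI and 0.522% ± 0.0482 in OI_F9 (SD, n = 3), with the ranges of OI and OI_F9 overlapping and those of CM and CM_F9 next to each other. They took 0.815% ± 0.0688 in AI and 1.26% ± 0.0747 in AI_F9. With 3 samples against 3 an exact two-sided permutation test cannot go below p = 0.1, so these shares carry no test.

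The ratio of mitochondrial to nuclear reads was 4.24 ± 0.266 in CM and 4.87 ± 0.171 with FGF9, 4.39 ± 0.166 in OI and 5.54 ± 0.208 with FGF9, and 5.18 ± 0.335 in AI and 5.35 ± 0.249 with FGF9 (SD, n = 3). The ratio was thus higher in every FGF9 sample than in every control sample in CM and in OI, while in AI and AI_F9 the ranges overlapped.

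**Figure D1:**
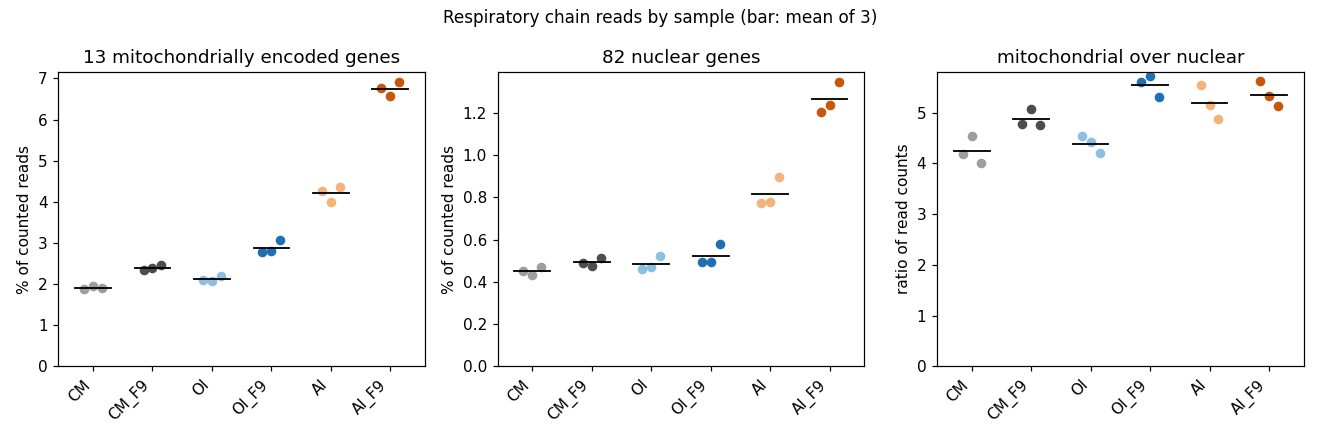
Share of counted reads (%) from the 13 mitochondrially encoded genes (left) and the 82 nuclear genes (middle), and the ratio of the former to the latter (right), in each of the 18 samples; points are samples, bars the mean of 3. The AI_F9 samples reach 6.58% to 6.91% and 1.21% to 1.35%, above all others in the left and middle panels, while the ratio separates CM_F9 and OI_F9 from their controls and does not separate AI_F9 from AI.

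Per length, the nuclear members were most abundant as the alpha and beta chains of ATP synthase in all 6 groups. Atp5a1 and Atp5b (the beta chain carries the catalytic sites) had mean levels of 130 and 122 FPKM in CM and of 378 and 457 FPKM in AI_F9, followed in all 6 groups by Cox6b1 at 110 FPKM in CM and 324 in AI_F9. The lowest levels in CM, under 2 FPKM, were those of Cox6c2, Cox6a2, Ndufs6b and Cox8b. The median level of the nuclear members was 26.1 ± 2.28, 26.6 ± 1.55, 26.9 ± 2.40 and 27.9 ± 3.42 FPKM in CM, CM_F9, OI and OI_F9, which do not differ beyond their spread, and 41.8 ± 3.84 in AI and 62.4 ± 4.71 in AI_F9 (SD, n = 3). Within AI_F9 the median per complex was 42.1 FPKM for complex I, 69.96 for complex V, 89.7 for complex IV, 99.8 for complex II and 119 for complex III, and in CM it was 18.3, 28.2, 32.1, 36.0 and 29.8 in that order.

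FGF9 raised nearly the whole respiratory chain in AI. Of the 82 nuclear members 80 rose and 0 fell at an adjusted p of at most 0.05 (edgeR's quasi-likelihood test with Benjamini-Hochberg adjustment over 17631 genes), and all 13 mitochondrial genes rose. Over all genes tested 26.9% rose and 23.7% fell. At an unadjusted p under 0.05 the nuclear counts were also 80 and 0, and DESeq2 gave 0 falls as well, while library-size scaling and limma on FPKM called 1 member lower. The median log2 fold change was 0.78 over the nuclear and 0.95 over the mitochondrial members, against 0.05 over all genes. Of the nuclear members 10 were also at least doubled and so passed the study's threshold for differentially expressed genes (DEGs, with a log2 fold change of 1 or more in size), and 5 of the mitochondrial ones were, where 6.66% of all genes were DEGs that rose. The 2 not called were Ndufs6b, at 0.46 ± 0.45 (SE) with 31 and 38 reads over the 3 AI and the 3 AI_F9 samples, and Cox6b2, at -0.30 ± 0.19. Under library-size scaling the nuclear median was 0.57, but its distance from the median of all genes was 0.73 under both scalings.

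**Figure D2:**
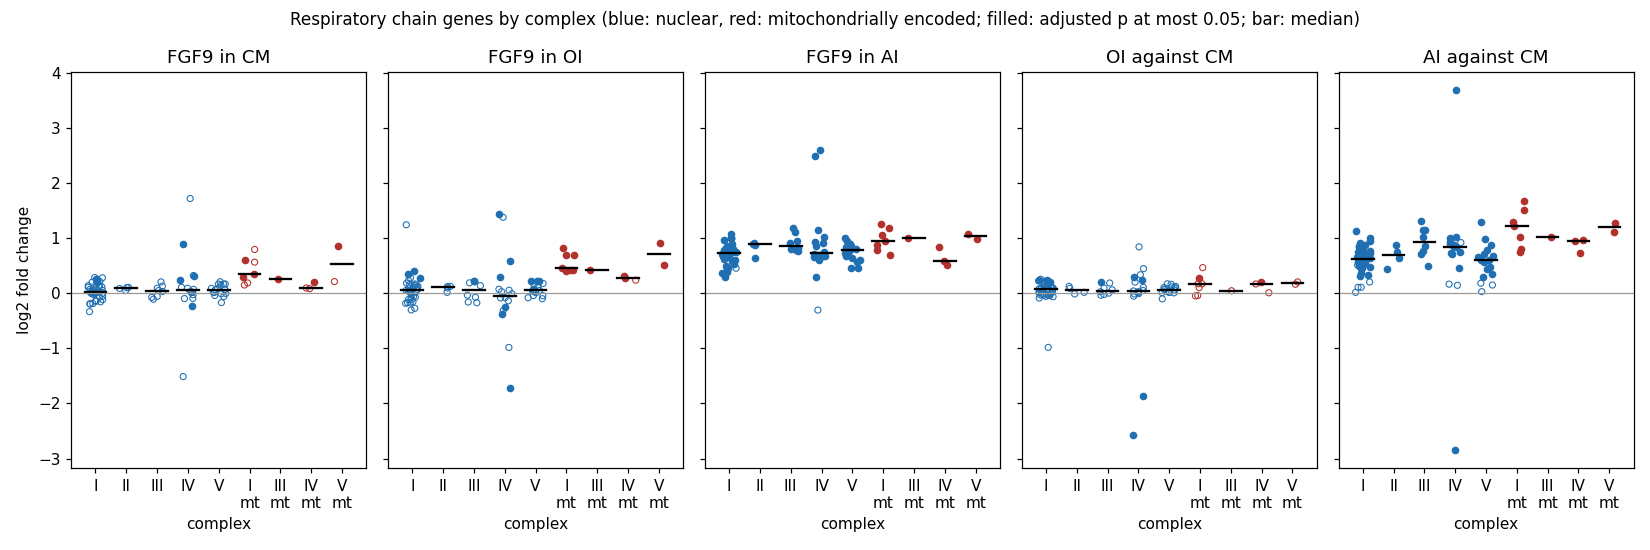
Log2 fold change of each respiratory chain gene in the 5 comparisons, by complex, with nuclear genes in blue and mitochondrially encoded genes (mt) in red; filled points have an adjusted p of at most 0.05, bars are medians. Nearly all points are filled and above 0 for FGF9 in AI and for AI against CM, while for FGF9 in CM and OI the nuclear points centre near 0 and the red ones lie above it.

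Complex I, the NADH dehydrogenase, had 36 of 37 nuclear members higher with FGF9 in AI, with a median log2 fold change of 0.74. Ndufs1, which carries iron-sulfur clusters of the electron path, was at 17.4, 17.8 and 18.8 FPKM in the AI samples and at 31.1, 30.7 and 32.6 in AI_F9. Its groups did not overlap, and its log2 fold change was 1.01 ± 0.05 (adjusted p = 2.3e-14). Ndufv1, which binds NADH, was at 41.4, 43.8 and 44.8 FPKM in AI and at 71.0, 71.5 and 79.4 in AI_F9. It rose by 0.98 ± 0.07 on the log2 scale (adjusted p = 1.3e-11), again without overlap. The accessory subunits Ndufa10 and Ndufb3, named after their values were seen because they passed the DEG threshold, rose by 1.08 and 1.01. The 7 genes of the nuclear catalytic core all rose, with a median of 0.81. The smallest called rise of all members was 0.29, for Ndufa7 (also named after its value was seen), whose samples overlapped in FPKM.

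Complexes II and III rose without exception. In complex II, which is entirely nuclear and also belongs to the citric acid cycle, Sdha (the flavoprotein) was at 85.8, 90.7 and 92.2 FPKM in AI and at 146, 143 and 152 in AI_F9. Sdhb, the iron-sulfur subunit, was at 31.2, 34.0 and 35.6 FPKM in AI and at 50.6, 52.6 and 59.2 in AI_F9. Neither overlapped, and they rose by 0.92 ± 0.05 and 0.89 ± 0.08 on the log2 scale (adjusted p = 5.7e-13 and 3.3e-09). All 4 members rose, with a median of 0.89. In complex III all 8 rose, with a median of 0.87. Uqcrfs1 was at 75.1, 77.5 and 86.1 FPKM in AI and at 153, 151 and 165 in AI_F9. It had the largest rise among nuclear members with over 100 reads in each group, 1.18 ± 0.06 (adjusted p = 1.6e-13), and the core subunits Uqcrc1 and Uqcrc2 rose by 0.77 and 1.11.

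Complex IV had 15 of 16 nuclear members higher, with a median log2 fold change of 0.73. Cox5a and Cox5b, which sit on the mitochondrially encoded core, were at 36.2, 35.7 and 40.7 FPKM and at 40.3, 41.1 and 49.9 FPKM in AI. In AI_F9 they were at 48.0, 55.8 and 55.9 and at 62.6, 66.5 and 76.9. Both were separate from their controls and rose by 0.71 ± 0.08 and 0.86 ± 0.10 (adjusted p = 2.0e-07 and 2.9e-07). Cox6b1, Cox7a2, Cox7b, Cox6c, Cox7c and Cox8a rose by 0.92, 0.93, 1.02, 0.69, 0.68 and 0.66. The 2 largest values, 2.60 for Cox8b and 2.5 for Cox6a2, belong to isoforms with few reads that are described with the isoforms below. Both are counted among the rises and DEGs given above, although they became members through groups where they were high. Cox6c2, with 41 reads over the AI and 81 over the AI_F9 samples, rose by 1.15 ± 0.40 (adjusted p = 0.021), and was not called when AI replicate 1, AI_F9 replicate 3 or the 6 libraries numbered 3 were left out.

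ATP synthase had all 17 nuclear members higher, with a median of 0.79. Atp5b was at 248, 254 and 282 FPKM in AI and at 440, 445 and 487 in AI_F9. Atp5a1 was at 234, 238 and 254 FPKM in AI and at 372, 369 and 394 in AI_F9. The beta chain rose by 1.01 ± 0.07 (adjusted p = 1.9e-11) and the alpha chain by 0.85 ± 0.06 (adjusted p = 1.4e-11), with no overlap in either. Atpif1, the inhibitor that binds ATP synthase and is not a member, went the other way. It was at 26.3, 24.4 and 34.4 FPKM in AI and at 15.9, 18.5 and 19.9 in AI_F9, and fell by 0.45 ± 0.12 on the log2 scale (adjusted p = 0.0046).

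The mitochondrially encoded genes rose by a similar amount. mt-Nd1, a membrane core subunit of complex I, was at 5258, 5031 and 5579 FPKM in AI and at 10818, 10583 and 11472 in AI_F9. mt-Cytb, the only complex III subunit encoded there, was at 6545, 5992 and 6973 FPKM in AI and at 11112, 10982 and 11790.2 in AI_F9. They rose by 1.26 ± 0.07 and 1.00 ± 0.07 on the log2 scale (adjusted p = 1.6e-13 and 1.3e-11) and did not overlap. mt-Co1, the catalytic subunit of complex IV and the most abundant of all members per length, was at 10733, 10165 and 10684 FPKM in AI and at 13792, 13533 and 14024 in AI_F9. Its rise of 0.60 ± 0.05 (adjusted p = 1.7e-09) stood beside the larger one of mt-Nd1, and the difference between the genes was not tested. mt-Nd2, mt-Nd4, mt-Nd5 and mt-Nd6 rose by 1.19, 0.79, 0.95 and 0.88. Of the genes inside the stretch, mt-Co2, mt-Co3, mt-Atp6, mt-Atp8, mt-Nd3 and mt-Nd4l rose by 0.84, 0.51, 0.98, 1.09, 1.07 and 0.70, and mt-Nd3, mt-Nd4l and mt-Atp8 rest on 104, 167 and 125 reads over the 3 AI samples.

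**Figure D3:**
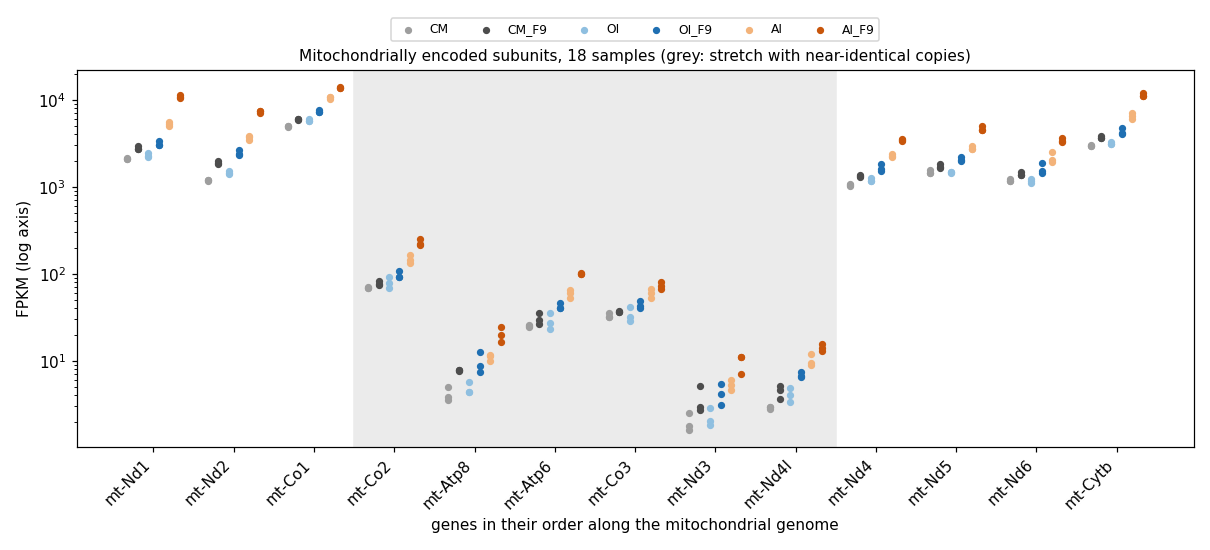
FPKM (log axis) of the 13 mitochondrially encoded genes in the 18 samples, in their order along the mitochondrial genome; colours are the 6 groups and the grey band marks the genes next to each other in the stretch with near-identical copies. The AI_F9 points are the highest for every gene, and the genes in the grey band lie at a few to about 248 FPKM against 1012 to 14024 FPKM outside it.

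Adding the reads of the chromosome 1 copies to the mitochondrial genes before the fit, an alternative chosen after seeing the data, left all 13 higher with FGF9 in AI. It lowered the mitochondrial genes with a larger FGF9 effect in AI to 8 against CM (from 10) and 8 against OI (from 9), and the mitochondrial median for OI against CM from 0.17 to 0.10. The copies themselves took 1926 reads over the CM and 6063 over the AI_F9 samples for Gm28661, the copy of mt-Co2, beside 2823 and 8938 for mt-Co2.

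The rise in AI was larger than the change in the other media by the test of the difference itself. The FGF9 effect in AI exceeded that in CM for 72 nuclear members and was below it for 1, Cox6b2, where 19.4% and 20.6% of all genes went these ways. The median difference was 0.76 on the log2 scale. For the mitochondrial members 10 of 13 had a larger effect in AI than in CM, with a median difference of 0.59, and mt-Nd3, mt-Nd4l and mt-Atp8 were not called. Against OI, the effect in AI was larger for 70 nuclear members and smaller for 1, again Cox6b2, where 19.7% and 20.3% of all genes went these ways, with a median difference of 0.75. For the mitochondrial members it was larger for 9 of 13, with a median of 0.45. Under library-size scaling 54 nuclear and 8 mitochondrial members had a larger effect in AI than in CM, with medians of 0.49 and 0.32, and 53 and 5 than in OI, with medians of 0.49 and 0.19, where the median of all genes was -0.27 and -0.26. Between OI and CM the effects differed for mt-Nd5, by 0.32 ± 0.09 (adjusted p = 0.031), and for Ndufa4l2, by -1.70 ± 0.18 (adjusted p = 9.0e-07), where 5.48% of all genes differed in either direction. The call of mt-Nd5 was lost when CM replicate 1 or 2, CM_F9 replicate 1 or 3, OI replicate 1 or 2 or OI_F9 replicate 3 was left out.

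In CM, FGF9 left most nuclear members uncalled, and 6 of the 13 mitochondrial genes rose. Of the nuclear members 5 rose and 1 fell, that is 6.1% and 1.22% where 18.5% and 18.9% of all genes did, with a median log2 fold change of 0.05. These counts were 17 and 3 with the replicate block and 19 and 0 under library-size scaling, so how few nuclear members moved depended on the fit. Of the mitochondrial genes 6 rose (mt-Nd1, mt-Nd2, mt-Nd4, mt-Cytb, mt-Co1 and mt-Atp8) and 0 fell, with a median of 0.25 (9 and 0 at an unadjusted p under 0.05). mt-Nd2 was at 1185, 1201 and 1167 FPKM in CM and at 1803, 1879.8 and 1957 in CM_F9, a rise of 0.60 ± 0.06 (adjusted p = 3.2e-08). mt-Nd1 was at 2094, 2129.6 and 2073 FPKM in CM and at 2695, 2698 and 2958 in CM_F9, a rise of 0.35 ± 0.07 (adjusted p = 0.00017). In FPKM, which has no correction for composition, the CM and CM_F9 samples did not overlap for any of the 13. The share of all genes without such overlap was not counted, so this is a description only. The 7 genes not called had values of 0.09 to 0.80.

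The nuclear members that rose in CM were Cox6b2 (0.90), Cox7a2l (0.32), Ndufa6 (0.27), Cox8a (0.24) and Ndufv1 (0.20), and Cox6a1 fell by 0.24 on the log2 scale. Cox7a2l, known as a supercomplex factor of complexes III and IV, was at 68.7, 70.6 and 70.9 FPKM in CM and at 89.5, 90.2 and 93.2 in CM_F9, and its function in these cells was not tested. The Cox7a2l samples did not overlap and the rise had an SE of 0.08 (adjusted p = 0.0036). Cox6a1, the common isoform of subunit VIa, was at 93.0, 88.5 and 101 FPKM in CM and at 82.3, 79.1 and 88.7 in CM_F9, which overlapped. Its fall was not called under library-size scaling or with limma at 0.1 added. The call was also lost without CM replicate 3 or without CM_F9 replicate 2. The nuclear counts depended on single libraries: 3 rose without CM replicate 2 or without CM_F9 replicate 3, and without the latter the nuclear median was -0.0051. Without the 6 libraries numbered 3, 13 nuclear members rose, 3 fell, and 6 mitochondrial genes rose.

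With FGF9 in OI nearly all mitochondrial genes rose. Of the 13, 12 rose and 0 fell, with a median log2 fold change of 0.43 (13 and 0 at an unadjusted p under 0.05), where 19.8% of all genes rose and 20.1% fell, and mt-Co2 was at 0.24 ± 0.10 (adjusted p = 0.058). mt-Cytb was at 3066, 3058 and 3231 FPKM in OI and at 4035, 4189 and 4699 in OI_F9. mt-Co1 was at 5729, 5721 and 6008 FPKM in OI and at 7172, 7284 and 7543 in OI_F9. Neither overlapped, and they rose by 0.42 ± 0.07 and 0.28 ± 0.05 (adjusted p = 2.1e-05 and 0.00013). mt-Nd2 rose most among the genes outside the copied stretch, by 0.70 ± 0.06. Only mt-Co2 and mt-Co3 had overlapping samples in FPKM, and the share of all genes without overlap was not counted.

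Of the nuclear members in OI 11 rose and 3 fell, 13.4% and 3.66% of the 82, with a median of 0.05. Cox6b2 (1.45), Cox7a2l (0.58), Ndufa6 (0.41) and Ndufs7 (0.34) rose most, the last a core iron-sulfur subunit of complex I. Ndufa4l2, Cox6a1 and Cox5a fell by 1.72, 0.37 and 0.24 on the log2 scale. Cox6a1 was at 103.9, 111.1 and 122.8 FPKM in OI and at 89.4, 80.3 and 100.02 in OI_F9, all below the OI samples (adjusted p = 0.00079). Same-numbered samples of OI and OI_F9 deviated together only weakly, at correlations of 0.119 to 0.171, and AI replicate 3 reached 0.14. Libraries numbered 3 stood apart in all 6 groups, so these values are not read as a pairing specific to OI. With the replicate number as a block 17 nuclear members rose and 8 fell, and 12 mitochondrial genes rose. Without OI replicate 1, 2 or 3 the nuclear rises were 4, 5 and 18, and without OI_F9 replicate 3 they were 3 beside 7 falls, with a median of -0.04. Without the 6 libraries numbered 3, 15 rose and 9 fell, and 11 mitochondrial genes rose.

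Several subunits exist in more than 1 version, and these isoforms did not all follow their complex. Cox6b2, the isoform of subunit VIb known from testis, was at 2.60, 2.89 and 2.24 FPKM in CM and at 4.80, 5.07 and 5.18 in CM_F9. It was at 3.65, 3.22 and 3.84 FPKM in OI and at 10.6, 9.10 and 10.6 in OI_F9. Neither pair overlapped, and the rises were 0.90 ± 0.18 and 1.45 ± 0.17 (adjusted p = 0.00031 and 1.7e-07). In AI it was at 3.75, 2.23 and 3.25 FPKM and in AI_F9 at 2.22, 1.74 and 2.55, which overlapped. That value of -0.30 was not called (adjusted p = 0.21) but was -0.51 and called under library-size scaling and without AI replicate 2. Of the summed Cox6b1 and Cox6b2 FPKM, Cox6b2 made up 2.32% in CM and 4.15% with FGF9, 3.0% in OI and 8.29% with FGF9, and 1.53% in AI and 0.67% with FGF9.

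Ndufa4l2, a paralog of Ndufa4 known to be induced by hypoxia, followed the osteogenic medium. It was at 27.4, 27.1 and 29.4 FPKM in CM and at 7.24, 6.30 and 9.71 in OI, a fall of 1.87 on the log2 scale (SE 0.11, adjusted p = 8.5e-12). With FGF9 in OI it was at 2.98, 2.25 and 2.09 FPKM, a further fall of 1.72 (SE 0.15, adjusted p = 1.9e-09), and neither comparison had overlap. In CM_F9 it was at 28.7, 29.9 and 27.3 FPKM, which overlapped the CM samples (-0.03 ± 0.10). It was at 40.3, 41.7 and 43.4 FPKM in AI and 43.9, 43.8 and 45.9 in AI_F9; the difference of 0.30 ± 0.09 was called (adjusted p = 0.012), but not under library-size scaling, where it was 0.09, nor without AI replicate 1 or 2 or AI_F9 replicate 3. Ndufa4 itself rose by 0.30 in OI against CM (adjusted p = 0.036) and by 0.75 with FGF9 in AI. The share of Ndufa4l2 in their sum was 42.5% in CM, 14% in OI and 5.19% with FGF9 there, and was 34.9% in AI and 28% with FGF9 there.

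The 3 genes of the c subunit, which make the same mature protein, did not move alike, and Atp5g3 took a larger share of their sum in AI and AI_F9. Atp5g3 was at 42.0, 36.96 and 43.1 FPKM in CM, at 102, 102 and 118 in AI and at 165, 174 and 183 in AI_F9. It rose by 1.29 ± 0.08 in AI against CM (adjusted p = 2.2e-12) and by 0.90 ± 0.08 with FGF9 in AI (adjusted p = 9.7e-10). Atp5g1 was at 5.92, 5.11 and 5.99 FPKM in CM, at 6.56, 6.69 and 7.63 in AI and at 9.66, 9.19 and 9.30 in AI_F9. Atp5g2 was at 25.5, 25.3 and 27.8 FPKM in CM, at 30.7, 30.4 and 33.3 in AI and at 34.8, 37.2 and 40.8 in AI_F9. Both were above CM in every AI sample, but their values of 0.18 ± 0.10 and 0.15 ± 0.09 for AI against CM did not pass the test (they did under library-size scaling and with the replicate block), and FGF9 in AI raised them by 0.64 and 0.46. Of the 3 genes' summed FPKM, Atp5g3 made up 56.0% in CM and 54.7% with FGF9, and 56.3% in OI and 52.3% with FGF9. Its share was 73.6% in AI and 78.7% with FGF9, and the SD was at most 1.78 in all groups. The gene lengths behind FPKM were 4912, 1675 and 2181 bases for Atp5g1, Atp5g2 and Atp5g3, and these shares depend on them.

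The isoforms known from striated muscle stayed rare. Cox8b, which brown fat also uses, had 1 read over the 3 CM samples, 18 over AI and 98 over AI_F9. It rose by 2.60 ± 0.58 with FGF9 in AI (adjusted p = 0.00062), where its samples were at 0.30, 0.91 and 1.43 FPKM in AI and at 4.27, 3.09 and 6.93 in AI_F9, and even there Cox8a made up 97.9% of the summed Cox8a and Cox8b levels. Cox6a2 had 52, 17, 8, 4, 7 and 37 reads in CM, CM_F9, OI, OI_F9, AI and AI_F9. It fell in OI and in AI against CM by 2.56 ± 0.78 and 2.85 ± 0.80 on the log2 scale and rose with FGF9 in AI by 2.5 ± 0.83 (adjusted p = 0.020, 0.0039 and 0.016). The call in OI was lost without CM replicate 3 or OI replicate 1 or 2, and that with FGF9 in AI without AI replicate 1. It made up at most 1.31% of the summed Cox6a level on average in any group. Cox8b reached the count minimum for members through AI_F9, and Cox6a2 mainly through samples of CM and AI_F9, the groups where each was high. Their calls in those comparisons are therefore not independent of the choice of members. The brown adipocyte list, which holds Cox8b, Ppargc1a and Ppara, had 7 of 8 tested genes higher and 1 lower with FGF9 in AI, and summed to 66.3 to 70.4 FPKM in AI and 71.0 to 80.7 in AI_F9; Ucp1 had a mean of 0.163 and 0.75 FPKM.

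**Figure D4:**
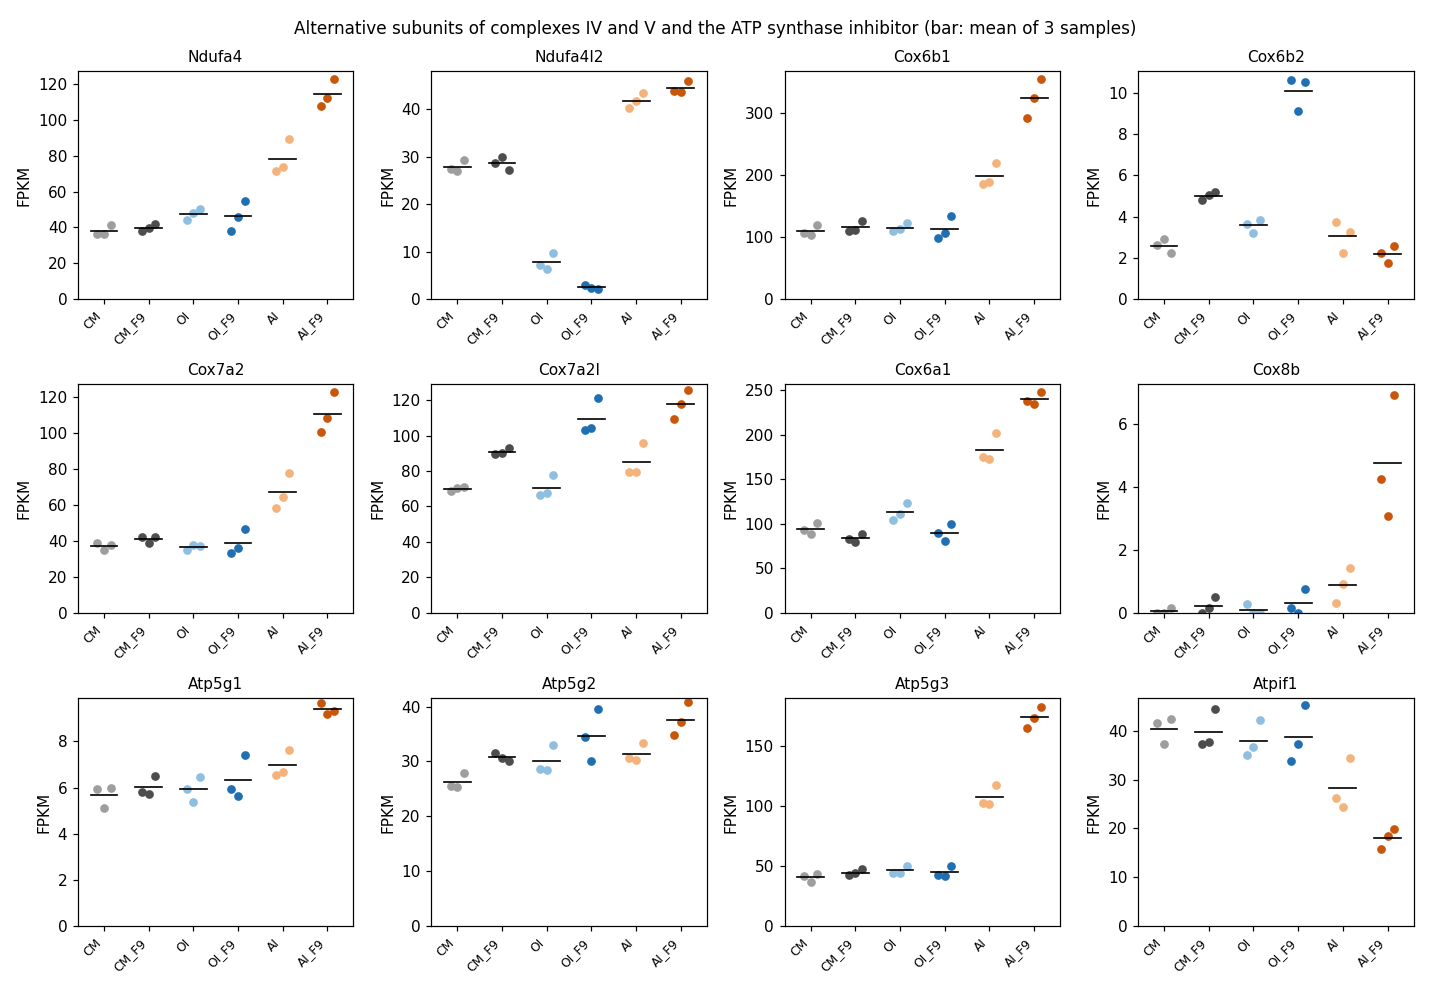
FPKM of alternative subunits of complexes IV and V and of the ATP synthase inhibitor Atpif1 in the 18 samples; points are samples, bars the mean of 3, and each panel has its own axis from 0. Most panels peak in AI_F9, while Cox6b2 peaks in OI_F9 (9.10 to 10.6 FPKM), Ndufa4l2 is lowest in OI_F9 (2.09 to 2.98 FPKM) and Atpif1 is lowest in AI_F9 (15.9 to 19.9 FPKM).

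Without FGF9, AI against CM shares its AI samples with the comparison of FGF9 in AI, so the values are given side by side and not related. Of the nuclear members 70 rose and 1 (Cox6a2) fell in AI against CM, with a median log2 fold change of 0.66, and all 13 mitochondrial genes rose, with a median of 1.02. Over all genes 28.5% rose and 30.5% fell. As DEGs, 9 nuclear and 8 mitochondrial genes rose, where 8.68% of all genes did. By complex 32 of 37, 4 of 4, 8 of 8, 12 of 16 and 14 of 17 nuclear members of complexes I to V rose, with medians of 0.63, 0.69, 0.94, 0.85 and 0.61. The 11 not called were Ndufa13, Ndufb7, Ndufs4, Ndufs6b, Ndufs8, Cox6b2, Cox6c2, Cox7a2l, Atp5e, Atp5g1 and Atp5g2.

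The largest rises among nuclear members in AI against CM were those of Cox8b, Uqcrfs1, Atp5g3 and Uqcr10. Uqcrfs1 was at 30.4, 28.03 and 30.4 FPKM in CM against the 75.1 to 86.1 given above for AI, a rise of 1.31 ± 0.07 (adjusted p = 3.8e-14). Uqcr10, a small accessory subunit of complex III, was at 48.7, 41.7 and 49.6 FPKM in CM and at 108, 105 and 125 in AI and rose by 1.16 ± 0.10. Both were far from overlapping. For Cox8b, 18 against 1 reads give a ratio of 19.0 with an exact 95% interval of 3.0 to 792 for counting error only, and its call was lost without AI replicate 3. Among the mitochondrial genes mt-Nd2 (1.52), mt-Nd4l (1.67), mt-Nd1 (1.22) and mt-Cytb (1.02) rose, and mt-Co3 rose least, by 0.73. Ndufv1, Cox5a and Cox8a rose by 1.14, 1.01 and 1.02, and Atpif1 fell by 0.62 on the log2 scale.

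OI against CM left most members where they were called neither way. Of the nuclear members 6 rose and 2 fell, 7.32% and 2.44%, where 11.8% and 10.8% of all genes did, with a median of 0.07. Ndufa4, Ndufv1 and Cox6a1 rose by 0.30, 0.24 and 0.24, and Cox6a2 and Ndufa4l2 fell as given above. Of the mitochondrial genes mt-Nd2 (0.27) and mt-Co1 (0.21) rose, with a median of 0.17 over the 13. mt-Nd2 was at 1430, 1402 and 1524 FPKM in OI, above the 1167 to 1201 of CM. These counts rest on single libraries: without OI replicate 3 there were 0 nuclear rises in edgeR and the mitochondrial median was 0.05, and without CM replicate 1 or 2 there was 1 nuclear rise. With the replicate block 14 nuclear members rose.

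The genes that build and run the chain were counted from lists of 45 tested assembly factors, 16 genes of mitochondrial DNA transcription and replication, 18 of mitochondrial RNA processing, 19 electron carriers and subunits outside the rule, 21 of outer membrane and import, and 12 coactivators and nuclear factors. With FGF9 in AI they moved with the members: 32, 13, 16, 17 and 21 of the first 5 lists rose and 0 fell. The medians were 0.51, 0.37, 0.46, 0.88 and 0.68. Of all genes 26.9% rose and 23.7% fell. Cycs, the cytochrome c that carries electrons from complex III to IV, was at 47.6, 45.3 and 55.9 FPKM in AI and at 125, 119 and 136 in AI_F9, a rise of 1.56 ± 0.08 (adjusted p = 2.9e-13). Etfa and Etfb, which pass electrons from fatty acid oxidation to ubiquinone, and Pdss1, which starts the side chain of ubiquinone, rose by 1.17, 1.19 and 1.29. The matrix chaperones Hspd1 and Hspa9 rose by 1.49 and 1.27, and Atpaf2, which assembles the ATP synthase head, by 1.14.

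In AI against CM 32, 11, 12, 16 and 16 genes of these 5 lists rose and 1, 1, 1, 2 and 0 fell. Of all genes 28.5% rose and 30.5% fell. Cycs was at 10.6, 9.66 and 10.3 FPKM in CM and rose by 2.17 ± 0.09, and Atpaf2, Higd1a (a supercomplex-associated protein), Coq8a (a kinase-like protein of ubiquinone synthesis) and Timm10 (an import chaperone) rose by 1.44, 1.34, 1.5 and 1.14. In CM with FGF9 3, 5, 4, 2 and 4 rose and 3, 1, 5, 1 and 1 fell, and in OI 2, 5, 2, 3 and 5 rose and 4, 1, 2, 4 and 0 fell. Beside the 18.5% and 18.9% of all genes that rose and fell in CM, and the 19.8% and 20.1% in OI, many of these counts are near or below the background.

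Of the 12 coactivators and nuclear factors 7 rose and 1 fell with FGF9 in AI, where 26.9% of all genes rose and 23.7% fell. Ppargc1a, which encodes PGC-1 alpha, was at 3.58, 3.61 and 3.52 FPKM in AI and at 6.71, 6.72 and 6.96 in AI_F9. Ppargc1b, its PGC-1 beta relative, was at 2.61, 2.5 and 1.59 FPKM in AI and at 7.90, 7.71 and 6.62 in AI_F9. They rose by 1.13 ± 0.11 and 1.94 ± 0.17 (adjusted p = 1.0e-08 and 1.9e-09) and did not overlap. Ppara, a nuclear receptor for fatty acids, rose by 2.23 ± 0.19, Esrrg, the ERR gamma receptor, by 2.52 ± 0.79 from 5 reads in AI and 27 in AI_F9 with overlapping samples, and Pprc1, a PGC-1 related coactivator, fell by 0.34. In AI against CM 5 of the 12 rose and 3 fell, with a median log2 fold change of 0.07. Of all genes 28.5% rose and 30.5% fell there. Ppargc1a, Ppargc1b and Ppara rose by 3.29, 2.90 and 2.13 in AI against CM. Nrf1, which encodes nuclear respiratory factor 1, was at 0.18 ± 0.08 (adjusted p = 0.067) in that comparison. With FGF9 in AI Nrf1 was at -0.08 ± 0.08 (adjusted p = 0.43). With FGF9 in CM 4 of the 12 rose and 1 fell, and in OI 3 rose and 1 fell. Of all genes 18.5% rose and 18.9% fell in CM, and 19.8% and 20.1% in OI.

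Perm1, a muscle regulator that acts with PGC-1 and ERR, rose with FGF9 in all 3 media. It was at 1.13, 0.72 and 0.99 FPKM in CM and at 3.92, 3.95 and 3.30 in CM_F9. It was at 1.07, 1.07 and 1.02 FPKM in OI and at 4.04, 3.85 and 3.12 in OI_F9. In AI it was at 0.28, 0.34 and 0.33 FPKM and in AI_F9 at 0.89, 1.04 and 1.03. No pair overlapped, and the rises were 1.92 ± 0.15, 1.75 ± 0.14 and 1.85 ± 0.19 (adjusted p = 1.8e-10, 8.0e-10 and 2.9e-08), while AI against CM it fell by 1.69. The difference between its rise in AI and in CM was -0.07 ± 0.27 and that between AI and OI was 0.10 ± 0.24, and neither was called (adjusted p = 0.87 and 0.78).

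Of the 16 genes that act on mitochondrial DNA 5 rose and 1 fell with FGF9 in CM and also in OI, with medians of 0.13 and -0.01 over the list. Over all genes 18.5% rose and 18.9% fell in CM, and 19.8% rose and 20.1% fell in OI. Counts this small beside those shares are not read as a result about the list. The genes below are named after their values were seen, apart from Mterf4, which the DEG threshold in AI named. Mterf4, of the termination factor family and needed for mitochondrial ribosome assembly, rose by 0.58, 0.86 and 1.08 in CM, OI and AI. Tfam, which packages and activates mitochondrial DNA, rose by 0.23, 0.23 and 0.37, and Tfb2m, a transcription initiation factor, by 0.20, 0.19 and 0.54. Polrmt, the mitochondrial RNA polymerase, rose by 0.30 and 0.41 in CM and OI, while its 0.12 ± 0.08 in AI was not called (adjusted p = 0.20). Twnk, the mitochondrial DNA helicase, rose by 0.38, 0.60 and 0.37, and Polg, the catalytic subunit of the mitochondrial DNA polymerase, fell by 0.37 and 0.26 on the log2 scale in CM and OI and rose by 0.26 in AI. Polrmt was at 3.51, 3.58 and 3.50 FPKM in CM and at 4.60, 4.66 and 4.37 in CM_F9, without overlap. From the list of coactivators and nuclear factors, also named after their values were seen, Esrra, the ERR alpha receptor, rose by 0.30, 0.31 and 0.43, and Gabpa, the DNA-binding GABP subunit, by 0.28, 0.25 and 0.39.

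**Figure D5:**
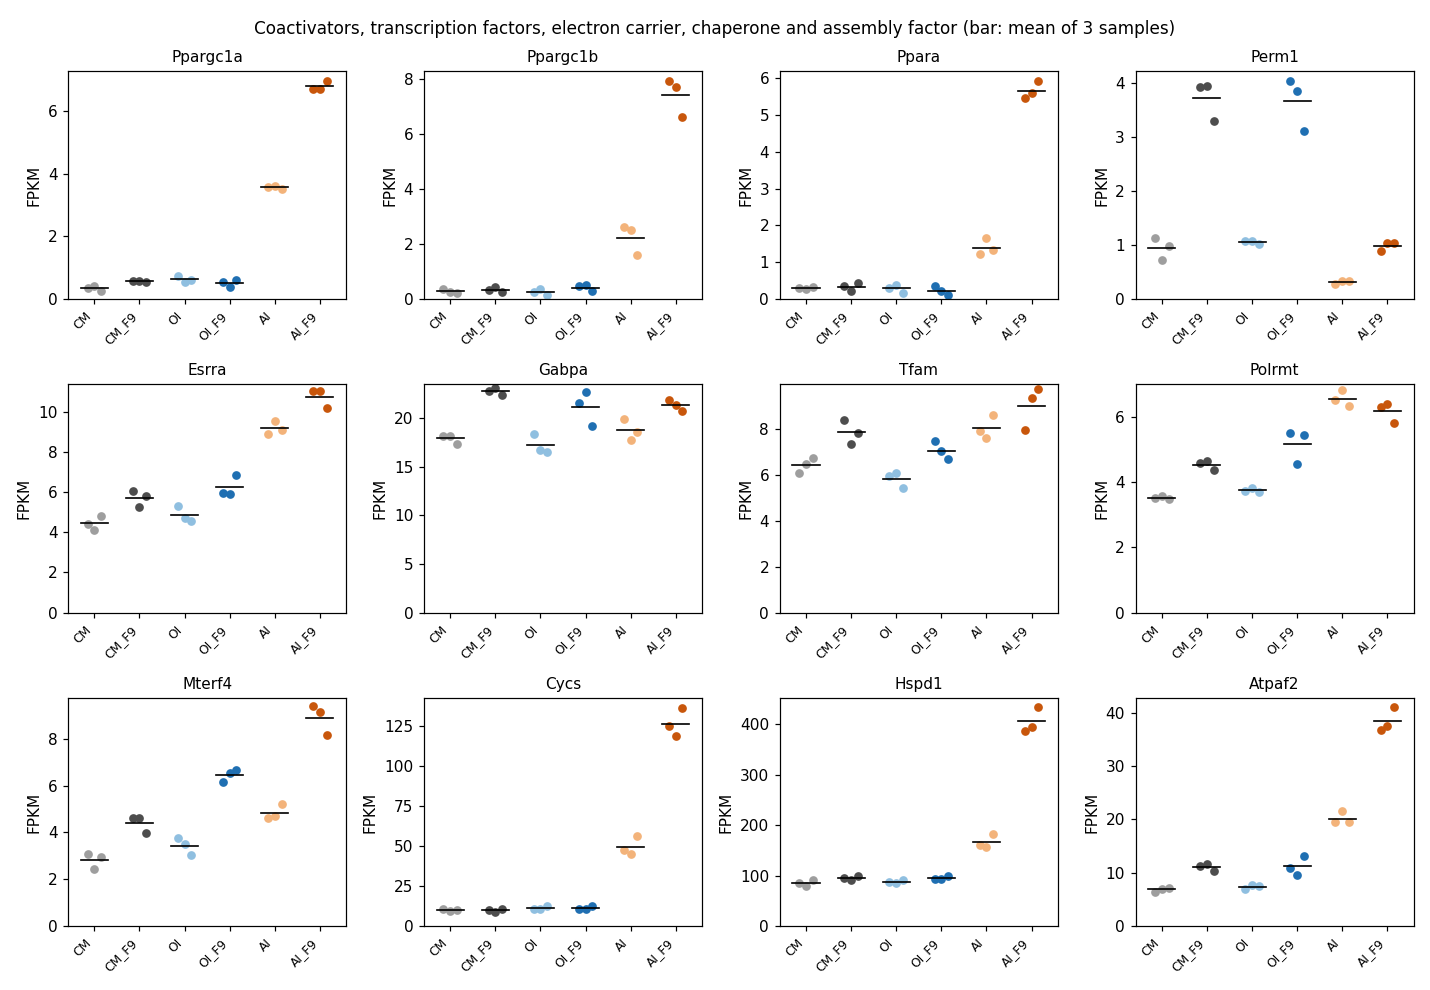
FPKM of 12 genes around the respiratory chain in the 18 samples: coactivators and nuclear receptors (Ppargc1a, Ppargc1b, Ppara, Perm1, Esrra), the GABP subunit Gabpa, factors of mitochondrial DNA expression (Tfam, Polrmt, Mterf4), cytochrome c (Cycs), a chaperone (Hspd1) and an assembly factor (Atpaf2); points are samples, bars the mean of 3. Ppargc1a, Ppargc1b, Ppara, Cycs and Hspd1 are high in AI and highest in AI_F9, whereas Perm1 is higher with FGF9 in each medium and lowest in AI, at 0.28 to 0.34 FPKM.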

How the data were processed

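RNA selected by oligo(dT) from 18 BMSC samples was sequenced on an Illumina HiSeq, in 6 groups of 3. By the study's methods, cutadapt 1.9.1 removed adapters, HISAT2 2.2.1 placed the reads on GRCm39 and HTSeq 0.6.1 gave the counts per gene. The authors deposited these counts and FPKM, which equalled the count over gene length and library total to within 1% for 100% of values of at least 5. FPKM has no correction for composition. Its length is the exonic length given for each gene, so FPKM rankings of genes and complexes and isoform shares depend on that length. Poly(A) selection makes mitochondrial transcript levels depend on their short tails.

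The model was edgeR 4.0.16 under R 4.3.3, on TMM-scaled counts after filterByExpr (17631 genes, all 95 members kept), 1 mean per group over all 18 samples, quasi-likelihood tests and Benjamini-Hochberg adjustment over all genes; the method was tested on simulated data. A member was called at an adjusted p of at most 0.05. The common biological coefficient of variation was 7.69%. P-values measure the spread between these samples, which may be technical. DESeq2 1.42.0, limma 3.58.1 on log2(FPKM + 1) and log2(FPKM + 0.1), other scalings and filters, the replicate block, and leaving out libraries were alternatives. The main fit held no replicate block, so it took no samples as pairs, and the block alternative fitted the replicate number over all 18 samples. Deviations of same-numbered OI and OI_F9 samples from their group means correlated at 0.119, 0.145 and 0.171. This comes from the data and not from the labels.

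The members and gene lists were chosen with earlier results of these data known. Named were all mitochondrial members, the 4 largest called nuclear rises and falls per comparison, catalytic core subunits, isoform pairs, and up to 4 DEGs per pathway list and comparison; some items the rule names are not reported here.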

Additional observations from a re-analysis of the deposited data

Results flagged for a closer look

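Listed here are the members named by rule whose FGF9 effects differed between media by at least 1 on the log2 scale with an adjusted p of at most 0.05 (edgeR, test of the difference). Between AI and CM the difference was 1.09 for Uqcrfs1, 4.01 for Cox6a2 and -1.20 for Cox6b2. Between AI and OI it was 1.07 for Ndufs1, -1.75 for Cox6b2, 2.02 for Ndufa4l2, 1.057 for Atp5b and 1.00 for Atp5g3. Between OI and CM it was -1.70 for Ndufa4l2. The value of Cox6a2 rests on 17 reads over CM_F9 and 7 over AI. Of all 17631 genes, 998 had a larger and 1490 a smaller effect in AI than in CM at this threshold. Between AI and OI these numbers were 1057 and 1417, and between OI and CM 88 and 199.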

How the results depend on the processing

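Depth limits Cox8b, Cox6a2, Cox6c2, Ndufs6b, mt-Nd3, mt-Nd4l and mt-Atp8. Counts for FGF9 in AI and AI against CM moved little beside the DEG threshold, while those of nuclear members in CM, OI and OI against CM moved by over 1.5 times with several choices. The cause was not tested.

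FGF9 in CM (5 nuclear higher, 1 lower): higher and lower were 19 and 0 with library-size scaling, 10 and 2 with no filter, 17 and 3 with the replicate block, 15 and 3 with only the groups compared, and 13 and 3 without the 6 libraries numbered 3 (chosen after seeing the data); limma gave 17 and 18 higher with 1 and 0.1 added, and 0 lower with 0.1. Mitochondrial rises were 10 with library-size scaling, and their median was 0.317 there and 0.316 with either limma fit. FGF9 in OI (11 and 3): higher was 17 with the block and 5 with only the groups compared; lower was 8 with the block, 5 with no filter and 9 without libraries 3. FGF9 in AI: 1 nuclear member was lower with library-size scaling and with either limma fit; the nuclear median was 0.569, 0.552 and 0.573, and the mitochondrial one 0.742, 0.741 and 0.742. OI against CM: 14 nuclear rises with the block; 1 fall with the stricter filter; 1 mitochondrial rise with limma (0.1 added); mitochondrial median 0.0398 without libraries 3. AI against CM: 0 nuclear falls with the stricter filter; mitochondrial medians 1.14 with library-size scaling, 1.13 and 1.14 with limma. Differences of effects: AI minus CM, 5 mitochondrial with either limma fit; AI minus OI, 5 with library-size scaling and 1 with either limma fit; OI minus CM, 1 nuclear rise with the block or without libraries 3, and 0 mitochondrial with either limma fit or only the groups compared.

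At the DEG threshold comparisons are in the order FGF9 in CM, OI and AI, OI against CM and AI against CM. Nuclear rises were 0, 1, 10, 0 and 9 and mitochondrial rises 0, 0, 5, 0 and 8. Nuclear falls with FGF9 were 0 in CM and 1 in OI. The FGF9 effect was larger in AI than in CM for 7 of 82 nuclear members, and than in OI for 10. Of all 17631 genes, 998 and 1057 had a larger effect at this threshold. For the mitochondrial members 0 passed in all 3 differences.

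Without any 1 replicate, nuclear higher, lower and median ran 3 to 5, 0 to 2 and -0.0051 to 0.0879 in CM, 3 to 18, 2 to 7 and -0.0437 to 0.1205 in OI, and 0 to 8, 1 to 2 and -0.0059 to 0.1111 in OI against CM. The medians below 0 were those without CM_F9, OI_F9 and OI replicate 3. In AI 74 to 80 rose and 0 to 1 fell; the mitochondrial median in OI against CM was 0.0527 to 0.2183, and 0 to 1 mitochondrial genes differed between OI and CM.

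The log2 ratio of the mitochondrial share was 0.03611, 0.05668, 0.007727, 0.009717 and 0.05087 (comparisons in the same order) when taken among respiratory chain reads in place of all reads (0.32, 0.44, 0.68, 0.15 and 1.14). The share among respiratory chain reads was already 80.9% in CM, 81.4% in OI and 83.8% in AI, so it had little room to rise and its log2 ratio is small by construction. The ratio of mitochondrial to nuclear reads has no such ceiling, at 4.24 in CM and 4.87 in CM_F9, and 4.39 in OI and 5.54 in OI_F9. For FGF9 in AI the log2 ratio of median FPKM of complex I was 0.533 with the mean of members; with TMM-scaled CPM per kilobase complexes I to V gave 0.609, 0.842, 1.01, 0.901 and 0.798.

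The replicate block left the nuclear rises and falls of FGF9 in AI at 80 and 0 and gave 74 and 1 for AI against CM. In CM and AI the same-numbered samples correlated at 0.023 to 0.033 and 0.025 to 0.14. The main fit took the numbers as pairs in no medium.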

Other observations

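The mitochondrial ribosomal RNAs moved with the protein genes. mt-Rnr1 was at 198, 198 and 189 FPKM in CM, at 1009.9, 961 and 1161 in AI and at 2587, 2524 and 2821 in AI_F9. It rose by 2.31 ± 0.09 in AI against CM and by 1.55 ± 0.09 with FGF9 in AI. mt-Rnr2 rose by 2.40 ± 0.08 and 1.00 ± 0.07. With FGF9 in CM they rose by 0.31 and 0.62, and in OI mt-Rnr2 rose by 0.30 while mt-Rnr1, at 0.17 ± 0.09, was not called.

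Of the 2 versions of subunit IV of complex IV, Cox4i1 followed the members, with rises of 0.85 ± 0.10 with FGF9 in AI and 0.83 ± 0.10 in AI against CM. Cox4i2, known from lung and hypoxia, was at 2.87, 3.94 and 4.64 FPKM in CM and at 0.48, 1.32 and 0.98 in AI. It fell by 2.14 in AI against CM and by 0.88 with FGF9 in OI, and rose by 0.95 with FGF9 in AI, where the samples overlapped.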
